A study of Mus musculus with 12 samples.

Results

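The mouse genes Mir191 and Mir425 form a small cluster of microRNA (miRNA) hairpins on chromosome 9. Its 4 mature products, mmu-miR-191-5p, mmu-miR-191-3p, mmu-miR-425-5p and mmu-miR-425-3p (given below without the species prefix), were taken by name from a table of 1915 miRNA names. Of these 4, 3 reached a mean of 5 RPM (reads of a miRNA scaled to a fixed library size) over all libraries and were among the 141 miRNAs tested, and miR-425-3p did not. The source was testis total RNA of C57BL/6 males, 4 months old, sequenced as small RNA of 17 to 40 nt by the library method labelled 10ng-seq. The 6 groups were RNA after oxidation with sodium periodate (NaIO4) at inputs of 10, 50 and 100 ng, and RNA before oxidation at the same inputs. Each group had 2 technical replicates, 12 libraries in all, and all carried spike-in RNA in proportion to the input. The labels do not give the number of mice, so every p below measures only the spread between libraries.

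A miRNA hairpin is cut by Drosha and Dicer into a short duplex, and usually one arm of it is kept in an Argonaute protein while the other is lost. The arms are named 5p and 3p for the side of the hairpin they come from. Mammalian miRNAs mostly end in a ribose with free hydroxyl groups, which periodate oxidises, so that an adapter can no longer be ligated to that end. Piwi-interacting RNAs (piRNAs) of the germ line carry a methyl group there, added by the methyltransferase HENMT1, and resist it. miR-191-5p is found in many tissues and is, like miR-425-5p, often used as a reference for miRNA measurements by RT-qPCR.

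The mature sequences, from RefSeq for GRCm38.p6, are shown with the seed (bases 2 to 8, which pair with target mRNAs) in capitals, because the seeds separate the 4 members from each other.
miR-191-5p: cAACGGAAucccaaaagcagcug
miR-191-3p: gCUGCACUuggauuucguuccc
miR-425-5p: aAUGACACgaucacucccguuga
miR-425-3p: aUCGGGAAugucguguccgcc
miR-489-3p: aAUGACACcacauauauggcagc
No seed was shared among the 4 members. miR-489-3p, from chr6:3721922-3721944 on the minus strand, was the only other mouse miRNA of the RefSeq table with the seed of one of them, that of miR-425-5p. It was listed at 0 reads in all 12 libraries, and a count of 3 reads over the 6 libraries before oxidation would have been 0.169 RPM. The members had similar mature lengths of 21 to 23 nt, and their RPM values were compared without a correction for length or sequence. Whether the library method captured the members equally was not tested, so levels of different members are compared in RPM only.

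The hairpins are shown with both arms in capitals, to place the arms that the table counts separately.
Mir191: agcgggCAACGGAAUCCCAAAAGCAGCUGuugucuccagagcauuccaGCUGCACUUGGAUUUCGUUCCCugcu
Mir425: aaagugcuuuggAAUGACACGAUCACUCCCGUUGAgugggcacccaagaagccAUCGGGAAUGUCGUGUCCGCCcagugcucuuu
Mir191 lies at chr9:108568319-108568392 and Mir425 at chr9:108568777-108568861, both on the plus strand of GRCm38, with 384 bases between them. In GENCODE M21 both lie inside the lincRNA gene 4833445I07Rik (chr9:108567533-108569174, plus strand), whose transcript 4833445I07Rik-201 is a single exon over both hairpins. In its transcript 4833445I07Rik-202, Mir191 falls in the intron and Mir425 just past the last exon. The protein-coding gene Dalrd3 starts 1024 bases beyond Mir425 on the same strand. A miRNA gene model, Gm24083, is annotated on the opposite strand over Mir191 (chr9:108568295-108568414). Among the 1018402 sequences of the deposited piRNA table, 0 lay within either hairpin on either strand, and 0 held the first 17 bases of any of the 4 arms.

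The RPM values were relative to a recovered 1924201 to 3347735 reads per library, so 3 reads were worth 0.896 to 1.56 RPM. Intervals on reads cover counting error only. miRNA reads numbered 625 to 937 per library after oxidation and 326701 to 454158 before it. All 7 listed germ cell miRNAs were detected, at a summed 23.7 to 54.0 RPM after oxidation and 36678 to 44328 RPM before it. Before oxidation the 2 smooth muscle miRNAs summed to 8940 to 13625 RPM, the 2 gonadal somatic ones to 105 to 200 RPM and the 6 blood ones to at most 4.05 RPM, with miR-142a-3p and miR-223-3p at 0.

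miR-191-5p was the dominant member. It had 4.16 and 8.83 RPM at 10 ng, 9.07 and 4.01 RPM at 50 ng and 3.59 and 5.68 RPM at 100 ng after oxidation. Before oxidation it had 6511 and 6581 RPM at 10 ng, 6094 and 6014 RPM at 50 ng and 5285 and 5579 RPM at 100 ng. Every library after oxidation was far below every library before it. A fall was common, as 97.2% of all tested miRNAs were called lower with oxidation averaged over inputs. miR-191-5p was the fifth or sixth most abundant miRNA in each library before oxidation.

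miR-425-5p, the leading arm of its own hairpin, was listed at 0 in all 6 libraries after oxidation. Before oxidation it had 12.9 and 14.5 RPM at 10 ng, 11.2 and 17.3 RPM at 50 ng and 16.9 and 17.1 RPM at 100 ng. The 50 ng libraries were the lowest and the highest of the 6 before oxidation, and the 100 ng libraries were almost equal.

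miR-191-3p, the minor arm of the miR-191 duplex, was also at 0 in all 6 libraries after oxidation. Before oxidation it had 23.6 and 11.98 RPM at 10 ng, 7.76 and 7.47 RPM at 50 ng and 4.38 and 5.18 RPM at 100 ng. Here the 10 ng libraries were the highest and the 100 ng libraries the lowest. How many of all tested miRNAs had their libraries in such an order was not counted. miR-191-3p also passed the filter of 5 RPM only through its 10 ng libraries. A difference between these inputs was common, as 53.9% of all tested miRNAs were called between 10 and 100 ng before oxidation.

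miR-425-3p, the minor arm of miR-425, had 0 reads in all 6 libraries after oxidation and 0 to 3 reads in each library before it, 0.746 ± 0.479 RPM on average (SD, n = 6). These counts are at or under the floor of 3 reads, so its level per input could not be resolved at this depth.

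By mean level before oxidation the order was miR-191-5p (6011 ± 509 RPM), miR-425-5p (14.98 ± 2.53 RPM), miR-191-3p (10.1 ± 7.13 RPM) and miR-425-3p (SD, n = 6 each). miR-425-5p and miR-191-3p overlapped at 10 ng, while at 50 and 100 ng both libraries of miR-425-5p were above both of miR-191-3p. In whole testis, fewer cells of a type and less RNA per cell cannot be told apart in these levels.

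**Figure D1:**
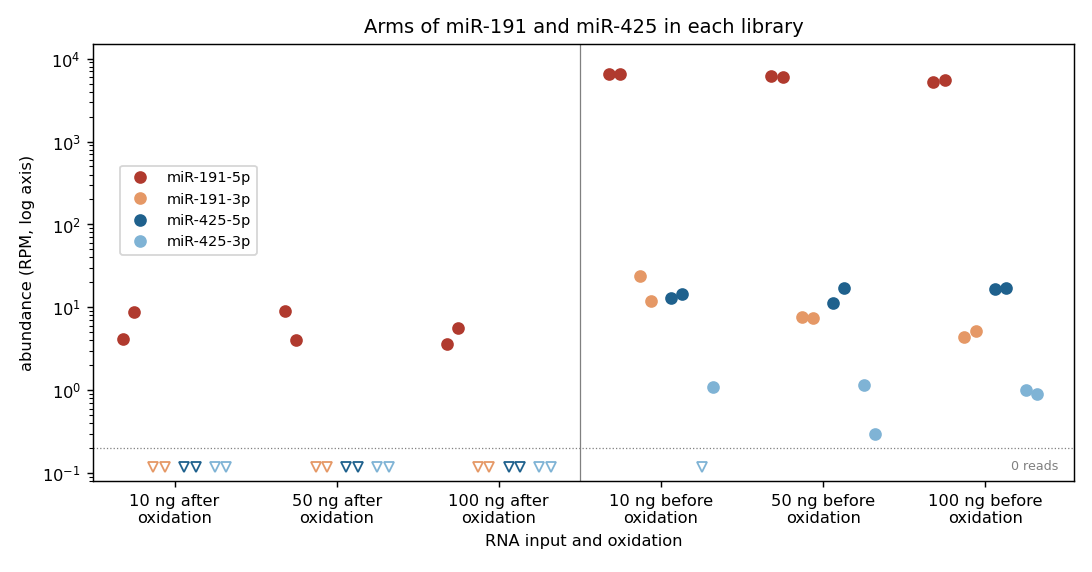
RPM of each of the 4 members in every library, on a log axis, with the 3 inputs after oxidation left of the 3 inputs before it. Each point is 1 library, and open triangles below the dotted line are libraries with 0 reads. miR-191-5p sits at 3.59 to 9.07 RPM after oxidation and at 5285 to 6581 RPM before it, and the other members are at 0 in all 6 libraries after oxidation.

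All 3 tested members fell on oxidation. Over all inputs, miR-191-5p averaged 5.89 ± 2.48 RPM after oxidation and 6011 ± 509 RPM before it (SD, n = 6 each). Its log2(RPM + 1) change was -9.84 (95% interval -10.36 to -9.32, limma adjusted p = 5.62e-11), lower in 6 of 6 libraries. miR-425-5p changed by -3.98 (-4.22 to -3.75, limma adjusted p = 1.36e-10) and miR-191-3p by -3.26 (-3.60 to -2.93, limma adjusted p = 1.03e-08), and these 2 changes become 2.23 and 2.94 with each library centred on its median miRNA, a shift common to all miRNAs of a library that places those less abundant than the median above 0 once they are at 0 reads. This sign is set by the scaling and says nothing against the loss of their reads. Both miRNAs passed the filter of 5 RPM only through libraries before oxidation, so these limma calls carry no support of their own. Their values of 0 after oxidation added no spread, so both intervals are too narrow. Of the 141 tested miRNAs 97.2% were called lower, with a median log2 change of -6.02, and centring moved that median to 0.19, so the calls do not set the members apart from other miRNAs. On recovered reads with TMM scaling, which is made to take out shifts that most features share, edgeR called 13 miRNAs lower. The median edgeR change over the tested miRNAs was still -4.16. By edgeR miR-191-5p changed by -0.68 (edgeR adjusted p = 0.0139), a smaller fall than that median. miR-425-5p (-7.49) and miR-191-3p (-6.71) were not called (edgeR adjusted p = 0.624 and 0.656). These fitted changes of miRNAs at 0 depend on the prior count, and the missing call does not show that the change was smaller.

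In reads, 91 of miR-191-5p remained after oxidation, against 106176 before it, summed over the 6 libraries of each. In RPM summed this way it was 1034-fold lower (95% counting interval 842 to 1285), at 0.0967% of its RPM before oxidation. RPM is relative to each library, so this is not the share of molecules left. The fall at 10 ng was 1029-fold (interval 702 to 1575). For 50 ng it was 884-fold (635 to 1269), and for 100 ng 1181-fold (827 to 1751), so the intervals overlapped. The 20 miRNAs of at least 1000 RPM before oxidation fell by 711- to 2237-fold with a median of 1227-fold, and miR-191-5p had the sixth smallest fall among them. It lay next to the testis miRNAs miR-871-3p at 962-fold and miR-741-3p at 1102-fold. The unmethylated spike-in RNAs, measured in the same libraries, fell 638-fold in RPM, with 84 reads after oxidation and 60413 before it, and the methylated ones were 7.81-fold higher.

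For the members at 0 after oxidation only a bound can be given, from a floor of 3 reads over the 6 libraries (0.191 RPM). miR-425-5p had 0 reads after oxidation and 269 before it, at least 79.5-fold lower. miR-191-3p had 0 reads after oxidation and 174 before it, at least 51.4-fold lower. miR-425-3p had 0 reads after oxidation and 13 before it, at least 3.84-fold lower. With no change, 238, 154 and 11.5 reads would have been counted for these 3 after oxidation.

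**Figure D2:**
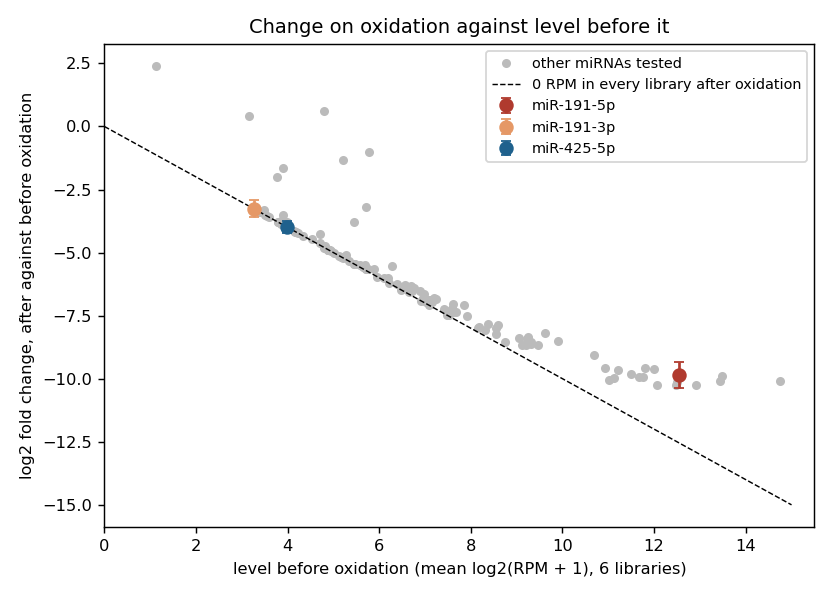
Log2(RPM + 1) change on oxidation (after minus before, averaged over inputs) against the mean log2(RPM + 1) level before oxidation. Each grey point is 1 of the other tested miRNAs, the coloured points are the 3 tested members with 95% limma intervals, and the dashed line is where a miRNA at 0 in every library after oxidation must lie. miR-425-5p (-3.98) and miR-191-3p (-3.26) lie on the line, and miR-191-5p (-9.84) lies above it because reads remained. Centring libraries on their medians shifts all miRNAs alike and puts the first 2 values above 0. The intervals of these 2 are too narrow, because their values of 0 after oxidation added no spread.

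By input, miR-191-5p had log2 changes on oxidation of -9.84 (10 ng), -9.74 (50 ng) and -9.94 (100 ng). That of miR-425-5p was -3.87, -3.90 and -4.17 in the same order, and that of miR-191-3p was -4.16, -3.11 and -2.53. All 9 values were called, where 96.5%, 95.7% and 95% of the tested miRNAs were called lower at 10, 50 and 100 ng. The calls of miR-425-5p and miR-191-3p carry no support of their own, since both passed the filter only through libraries before oxidation. The effect of oxidation did not pass the test of a difference between 10 and 100 ng for miR-191-5p (0.09, interval -1.17 to 1.36, limma adjusted p = 0.887) or miR-425-5p (0.29, limma adjusted p = 0.343). It passed for miR-191-3p (-1.63, interval -2.46 to -0.80, limma adjusted p = 0.00992), where 36.9% of the tested miRNAs passed, and it did not by edgeR (-2.22, edgeR adjusted p = 1.00), which made 0 calls in this comparison. With 0 in all libraries after oxidation, that value for miR-191-3p is its difference between inputs before oxidation with the sign turned. miR-191-3p also passed the filter of 5 RPM only through its 10 ng libraries before oxidation, so its call here carries no support.

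miR-191-5p made up a smaller share of the summed miRNA RPM after oxidation than before it. Its fall of 1034-fold was still below the median of 1227-fold over the 20 miRNAs of at least 1000 RPM before oxidation. The lower share of miR-191-5p thus does not show a larger fall than that of other abundant miRNAs. Its share of summed miRNA RPM after oxidation was 1.42 and 2.00% at 10 ng, 4.16 and 1.32% at 50 ng, and at 100 ng 1.36 and 1.92%. Before oxidation it was 5.58 and 5.50% at 10 ng, 4.67 and 4.69% at 50 ng, and at 100 ng 3.90 and 4.03%. The shares were lower after oxidation in 5 of 6 libraries without overlap, and 1 library at 50 ng, with 26 reads of miR-191-5p, reached the range before oxidation. The means were 2.03 ± 1.08% after and 4.73 ± 0.71% before (SD, n = 6 each), a difference of -2.70 points (exact 2-sided permutation within inputs, p = 0.00926, the smallest it can give, adjusted p over 2 shares = 0.00926).

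miR-425-5p had a share of 0 after oxidation and 0.0117% before it (exact permutation p = 0.00926, adjusted p = 0.00926). With 625 to 937 miRNA reads in a library after oxidation, a share of that size would not give a whole read, so a change in its share was not detectable at this depth. The 14 tested miRNAs of a list of 15 often proposed as RT-qPCR references all fell on oxidation, with a median log2 change of -6.69 beside -6.02 over all tested (5 of the 14 lie above 0 with libraries centred on their medians, a shift common to all miRNAs). They ranged from miR-361-5p at -3.33 to miR-26a-5p at -9.94, and miR-484 was below the filter.

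Between RNA inputs before oxidation, the tested members behaved unequally. miR-191-3p was higher at 10 ng than at 100 ng, with 17.8 ± 8.20 RPM at 10 ng and 4.78 ± 0.56 RPM at 100 ng (SD, n = 2 each). The ratio of these means was 3.72, and the log2(RPM + 1) difference was 1.63 (interval 1.04 to 2.22, limma adjusted p = 0.00111). In this comparison 53.9% of the tested miRNAs were called, 19.1% higher and 34.8% lower, and the median difference was -0.49. The values of 0 after oxidation added no spread for miR-191-3p to this fit, so its interval is too narrow. In a fit of the 6 libraries before oxidation alone, chosen after seeing the data, the interval was 0.79 to 2.47 (limma adjusted p = 5.78e-04). There 78% of the tested miRNAs were called. The call for miR-191-3p held under every alternative that gave it a value, and its size depended on the 10 ng libraries: without the library at 23.6 RPM the difference was 1.17, and without the one at 11.98 RPM it was 2.09. miR-191-3p passed the filter of 5 RPM, with a mean of 5.03 RPM over the 12 libraries, through the 10 ng libraries where it is high: with these at the 100 ng level the mean would be 2.86 RPM. A miRNA that enters in this way had to differ between inputs, so the call with the filter carries no support. With no filter miR-191-3p was called as well (limma adjusted p = 0.00369). That fit used the same values, with the same 0s after oxidation in its spread, and is not separate evidence.

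miR-191-5p averaged 6546 ± 50.1 RPM at 10 ng and 5432 ± 208 RPM at 100 ng (SD, n = 2 each), a ratio of 1.21. Both libraries at 10 ng were above both at 100 ng, and the share of all tested miRNAs separated in this way was not counted. Its log2 difference of 0.27 was not called (interval -0.62 to 1.16, limma adjusted p = 0.584) in the fit whose spread was shared with the libraries after oxidation. In a fit of the 6 libraries before oxidation alone, chosen after seeing the data, the same difference had an interval of 0.17 to 0.37 (limma adjusted p = 5.35e-06), where 78% of the tested miRNAs were called. With edgeR on recovered reads it was 0.61 (edgeR adjusted p = 0.00267), where 53.2% were called.

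miR-425-5p averaged 13.7 ± 1.18 RPM at 10 ng and 17.0 ± 0.15 RPM at 100 ng (SD, n = 2 each), a ratio of 0.807. Its log2 difference of -0.29 was not called (interval -0.70 to 0.12, limma adjusted p = 0.183). The values of 0 after oxidation narrowed that interval too. In the fit of the libraries before oxidation alone it was -0.99 to 0.41 (limma adjusted p = 0.435). The sign of the difference depended on the scaling. Centred on library medians the difference was 0.09, per spike-in read it was 0.26 and by edgeR it was 0.04, none of them called. Without the first or the second 50 ng library before oxidation it was called at the same -0.29 (limma adjusted p = 0.0455 and 0.0476).

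The input also went with other totals of the libraries. Before oxidation the summed miRNA RPM was 116696 and 119672 at 10 ng, against 135591 and 138463 at 100 ng, and the spike-in RPM was 12333 and 11884 at 10 ng, against 18305 and 17766 at 100 ng. The summed germ cell miRNAs were 36678 and 37760 RPM at 10 ng, against 43936 and 44328 RPM at 100 ng. The smooth muscle and gonadal somatic sums were also lower at both 10 ng libraries (8940 to 9180 and 105 to 110 RPM) than at 100 ng (13430 to 13625 and 187 to 200 RPM). The liver miRNA miR-122-5p went the other way, at 1.82 to 6.07 RPM at 10 ng and 0.305 to 0.674 RPM at 100 ng (under the floor of 3 reads), and the blood sum was 0 to 1.09 RPM at 10 ng and 1.83 to 4.05 RPM at 100 ng. Their part in the differences was not tested. Per RPM of all spike-ins summed, the ratios of 10 to 100 ng became 1.79 for miR-191-5p, 5.50 for miR-191-3p and 1.20 for miR-425-5p. Per summed miRNA RPM they were 1.40, 4.33 and 0.935. The spike-in classes changed unequally, so the first 3 ratios would differ with either class alone. Unmethylated spike-ins had 1473 and 1601 RPM at 10 ng, and 4895 and 4802 RPM at 100 ng. Methylated ones had 10860 and 10284 RPM at 10 ng, and 13409 and 12964 RPM at 100 ng.

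Between 50 and 100 ng before oxidation no member was called, and neither was any other miRNA by limma (0%), where 24 had an unadjusted p below 0.05 and edgeR called 11. The log2 differences were 0.16 for miR-191-5p (limma adjusted p = 0.868), 0.58 for miR-191-3p (interval -0.01 to 1.16, limma adjusted p = 0.297) and -0.26 for miR-425-5p (limma adjusted p = 0.482). In the fit of the libraries before oxidation alone, miR-191-5p was called at 0.16 (limma adjusted p = 0.0125), where 29.1% of the tested miRNAs were called. In that fit miR-191-3p was not called (interval -0.26 to 1.42, limma adjusted p = 0.314). In the fit of all 6 groups its difference stayed at 0.58 without the first or the second 10 ng library before oxidation. The sign for miR-425-5p turned to 0.03 without the 50 ng library at 11.2 RPM. Between 10 and 100 ng after oxidation, miR-191-5p differed by 0.36 (interval -0.53 to 1.26, limma adjusted p = 1), where 1.42% of the tested miRNAs were called.

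**Figure D3:**
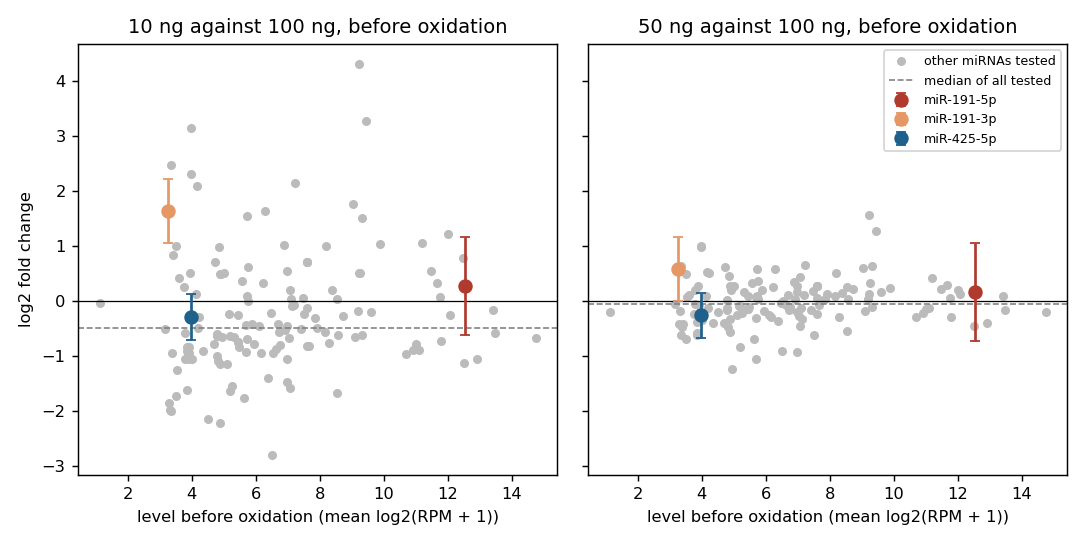
Log2(RPM + 1) difference from 100 ng before oxidation against the mean log2(RPM + 1) level before oxidation, for 10 ng (left) and 50 ng (right). Grey points are the other tested miRNAs, coloured points the 3 tested members with 95% limma intervals, and the dashed line the median of all tested. At 10 ng miR-191-3p lies at 1.63, well above the median of -0.49. The drawn intervals of miR-191-5p (0.27) and miR-425-5p (-0.29) include 0, with a spread shared with the libraries after oxidation. In the fit of the libraries before oxidation alone, the interval was 0.17 to 0.37 for miR-191-5p. There it was 0.79 to 2.47 for miR-191-3p and -0.99 to 0.41 for miR-425-5p. The sign of miR-425-5p turns positive under centring, spike-in scaling and edgeR.

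In the fit of all 6 groups, 3 of the 14 tested reference miRNAs were called higher at 10 ng, 3 lower and 8 were not called. Their median difference was -0.36 beside -0.49 over all tested. The arms of miR-423, miR-423-3p (2.31, limma adjusted p = 1.1e-04) and miR-423-5p (2.15, limma adjusted p = 9.34e-05), differed more than any member of the cluster. miR-361-5p was higher by 1.00 (limma adjusted p = 0.0143), a call that was lost without the first library at 10 ng before oxidation or the first at 100 ng. miR-93-5p was lower by 2.22 (log2 difference -2.22, limma adjusted p = 2.76e-04), as was miR-103-3p (-1.40, limma adjusted p = 0.00216). miR-23a-3p was lower in RPM (-0.50, limma adjusted p = 0.00998) and not per spike-in read (0.04), and the calls of miR-103-3p and miR-361-5p were lost with a pseudocount of 0.1. The 8 others lay between -0.82 and 0.70, in the fit whose spread was shared with the libraries after oxidation. In the fit of the libraries before oxidation alone, chosen after seeing the data, all 8 were called, 3 of them higher at 10 ng. Their limma adjusted p ran from 3.17e-12 (let-7a-5p) to 0.0295 (miR-186-5p). There miR-23a-3p was not called (limma adjusted p = 0.152), and 78% of all tested miRNAs were called. Over the 6 libraries before oxidation the SD of log2(RPM + 1) of miR-191-5p was 0.124, the seventh smallest of the 83 miRNAs with at least 50 RPM, whose median was 0.324. This rank is for RPM, where its ratio of 10 to 100 ng was 1.21. That ratio was 1.40 per summed miRNA RPM and 1.79 per spike-in RPM. The SD also includes counting error, which is larger for miRNAs with fewer reads.

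The profiles most like that of miR-191-5p over these 6 libraries, by the root mean square difference of log2(RPM + 1) centred on each miRNA, were those of miR-26a-5p (0.0624), miR-182-5p (0.0886) and let-7f-5p (0.0928), where the median over 82 miRNAs was 0.350. Those most like miR-425-5p were miR-30a-3p (0.158), miR-146a-5p (0.195) and miR-27b-3p (0.212), where the median over 83 was 0.342. These points share libraries and depth, and the measure carries no test.

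The hairpins of the cluster, which share a host transcript, differed widely in RPM. miR-191-5p per miR-425-5p was 506 and 453 at 10 ng, 542 and 347 at 50 ng, and at 100 ng 313 and 327 before oxidation. The means were 480 ± 37.6 at 10 ng and 320 ± 9.45 at 100 ng (SD, n = 2 each), and the difference of 160 did not pass (exact 2-sided permutation p = 0.156, adjusted p over 5 values = 0.259). miR-191-5p made up 5.54 ± 0.06% of summed miRNA RPM at 10 ng, 4.68 ± 0.02% at 50 ng and 3.96 ± 0.09% at 100 ng (SD, n = 2 each). Its difference of 1.58 points between 10 and 100 ng had the smallest p the permutation allows, 0.0222 (exact, adjusted p = 0.0556). That of miR-425-5p, -0.00081 points, had an exact permutation p of 0.756.

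Both hairpins gave mostly their 5p arm. The 5p arm of miR-191 made up 91 of 91 arm reads after oxidation (100%, exact binomial interval 96.03 to 100%) and 99.84% of the arm reads before it (99.81 to 99.86%). By library before oxidation it was 99.64 and 99.82% at 10 ng, 99.87 and 99.88% at 50 ng, and at 100 ng 99.92 and 99.91%. The 3p arm thus made up 0.361% (interval 0.279 to 0.459%) and 0.182% (0.125 to 0.255%) at 10 ng, and 0.0829% (0.0441 to 0.142%) and 0.0928% (0.0541 to 0.149%) at 100 ng. Both libraries at 10 ng had the lowest 5p shares of the 6. The difference between 10 and 100 ng was -0.183 points (exact permutation p = 0.0222, the smallest possible, adjusted p = 0.0556), and -0.0939 points without the first 10 ng library.

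The 5p arm of miR-425 had no reads after oxidation, so no share could be formed. Before oxidation its share was 100 and 93.0% at 10 ng, 90.6 and 98.3% at 50 ng, and at 100 ng 94.3 and 94.9%. Over all reads it was 95.4% (interval 92.2 to 97.5%). The interval of a single library was wide, such as 75.0 to 98.0% for the lowest, and the inputs overlapped. The difference of 1.88 points between 10 and 100 ng did not pass (exact permutation p = 0.6, adjusted p = 0.75), and without the first 10 ng library it was -1.60 points.

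**Figure D4:**
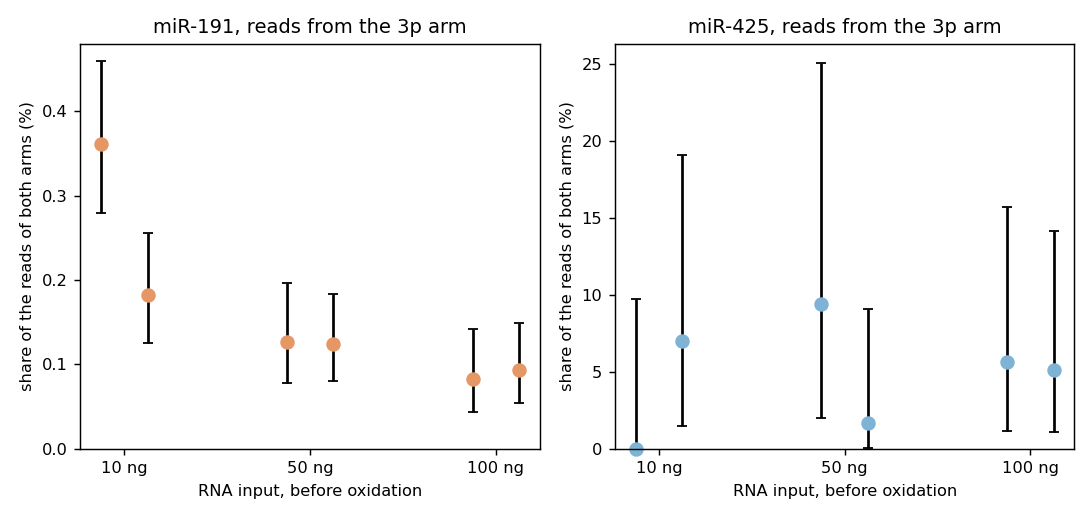
Share of the reads of both arms that came from the 3p arm, in percent, in each library before oxidation by RNA input in ng, for miR-191 (left) and miR-425 (right, on another scale). Points are libraries and bars are exact binomial 95% intervals of the reads. The 3p share of miR-191 runs from 0.361% in a 10 ng library to 0.0829% in a 100 ng library, and the intervals of miR-425 overlap at all inputs.

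Among 62 hairpins with both arms in the table and at least 50 RPM before oxidation, 37 were led by the 5p arm and 25 by the 3p arm, and 41 had over 99% of their RPM in the leading arm. By mean 5p share miR-191 (99.83%) stood between miR-182 (99.84%) and miR-204 (99.78%), with 18 of the other hairpins above it and 43 below. miR-425, whose arms summed to only 15.7 RPM, had 95.26% and fell between miR-30a (95.78%) and miR-30b (95.08%).

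**Figure D5:**
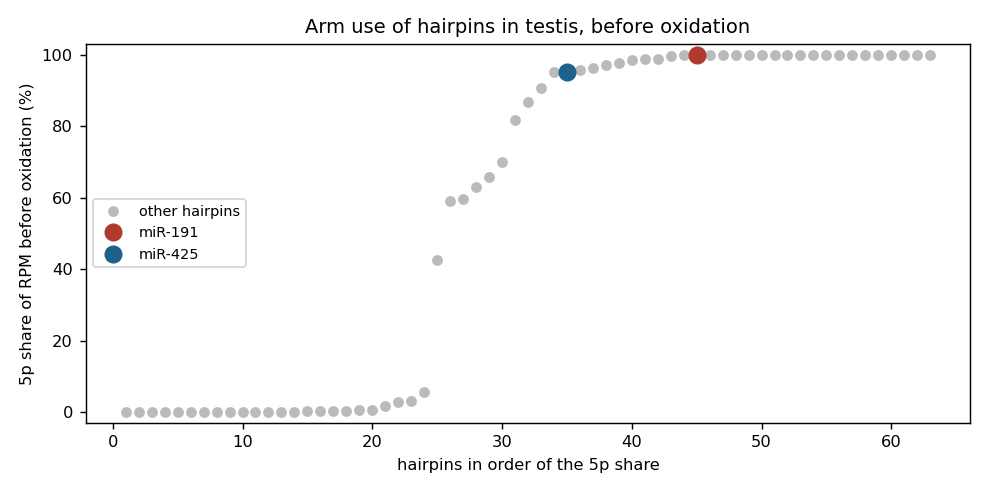
Share of hairpin RPM from the 5p arm, in percent, for 62 hairpins with at least 50 RPM before oxidation and for miR-425 (15.7 RPM), in rising order. Each point is 1 hairpin, from the libraries before oxidation. Most hairpins lie near 0 or 100%, with miR-191 at 99.83% and miR-425 at 95.26%.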

How the data were processed

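The authors deposited miRNA and piRNA tables in RPM and a spike-in table of raw read counts. Per the submitters' processing notes, Bowtie and the builds mm10 and hg38 were used, with no version; the role of hg38 and the RPM denominator are not given in the sources used here. Reads were recovered from the step of 1 read in the deposited piRNA RPM values, which were whole reads in 100% of cases (within 0.01 of a read); with that step, miRNA values were whole in 93.2 to 100%. The miRNA values after oxidation, taken alone, did not pass a check for whole reads, so their reads, folds and bounds rest on the step carried over from the piRNA table. No value column was left without a sample.

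The 141 miRNAs averaging 5 RPM or more entered a limma-trend fit of log2(RPM + 1) on the 6 groups (R 4.3.3, limma version 3.58.1), with Benjamini-Hochberg adjustment over all of them and calls below 0.05. The pseudocount understates changes of low miRNAs. Single values were tested by exact 2-sided permutation over libraries. Alternatives were pseudocounts, filters, centring, scaling to all spike-in reads summed, edgeR 4.0.16 with TMM on recovered reads, a replicate block and leaving out each library. The fit was tested on simulated data.

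The members, marker lists and reference list were chosen with earlier results of these data known. Named miRNAs were the members, the tested reference miRNAs, the 3 profiles nearest each leading arm and neighbours in the arm order. Those beside miR-191-5p in the order of falls on oxidation were chosen after their values were seen.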

Additional observations from a re-analysis of the deposited data

Results flagged for a closer look

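The effect of oxidation on miR-191-3p differed between 10 and 100 ng by -1.63 on the log2(RPM + 1) scale (limma adjusted p = 0.00992), a difference between groups under the same contrast. miR-191-3p passed the filter of 5 RPM, at a mean of 5.03 RPM, only through its 10 ng libraries before oxidation. The call was thus drawn from the values that admitted it and carries no support. The arm was at 0 in all 6 libraries after oxidation, so the difference is the one between inputs before oxidation, 17.8 ± 8.20 RPM at 10 ng and 4.78 ± 0.56 RPM at 100 ng (SD, n = 2 each). By edgeR the value was -2.22 (edgeR adjusted p = 1.00).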

How the results depend on the processing

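The limits are depth after oxidation, 2 technical replicates a group and RPM that are relative to each library. Counts of miRNAs lower on oxidation (137 averaged; 136, 135 and 134 at 10, 50 and 100 ng) became 296, 211, 231 and 263 with no filter, 66 in each with a filter of 50 RPM, 60, 58, 52 and 55 centred on library medians, and 13, 1, 9 and 9 by edgeR. For 10 against 100 ng before oxidation, 76 calls became 38 with a pseudocount of 0.1, 115 with no filter and 26 with the 50 RPM filter. For 50 against 100 ng, 0 calls became 40 with a pseudocount of 10, 18 with no filter, 2 with the 50 RPM filter, 23 per spike-in read, 11 by edgeR, 41 without the oxidised libraries and 0 to 13 leaving out each library. After oxidation, 2 calls became 4 with a pseudocount of 0.1, 1 with the replicate block and 1 to 9 leaving out each library. The interaction's 52 calls became 18 and 95 with pseudocounts of 0.1 and 10, 18 with the 50 RPM filter and 0 by edgeR.

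Centring turned the oxidation change of miR-191-3p to 2.94 (1.84, 3.15 and 3.85 at 10, 50 and 100 ng) and that of miR-425-5p to 2.23 (2.12, 2.35 and 2.21), and edgeR gave -6.71 and -7.49 without a call; that of miR-191-5p was -3.63 centred and -12.17 per spike-in read. For 10 against 100 ng before oxidation, miR-191-5p was called by edgeR (0.61) and without the oxidised libraries (0.27). miR-425-5p turned to 0.086 centred, 0.26 per spike-in read and 0.036 by edgeR, and was -0.37 to -0.21 leaving out each library; for 50 against 100 ng that range was -0.55 to 0.028. After oxidation miR-191-5p was -0.38 per spike-in read and -0.10 to 0.83 leaving out each library. Its interaction was -0.11 with a pseudocount of 10, -0.28 centred, -1.22 per spike-in read and -0.37 to 0.56 leaving out each library, and that of miR-425-5p was -0.086 centred, -0.26 per spike-in read and -0.036 by edgeR. The 5p share difference of miR-425 was -1.60 to 5.37 points leaving out each library. The cause was not tested.

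Replicate numbers did not pair the libraries: correlations of their deviations were -0.197 to 0.175, with 2 of 15 pairs over 0.1. The replicate block changed no member's call, and moved the calls between 10 and 100 ng after oxidation to 1. Permuting inputs within numbers cannot give a p below 0.0556, and with 1 library left out not below 0.0667, so those say nothing about stability.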

Other observations

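The minor arm of miR-191 was not alone in its difference between inputs. Of 16 hairpins with both arms tested, the minor arm's log2 difference of 10 minus 100 ng before oxidation exceeded that of the leading arm in 12 and was below it in 4, with a median of 0.61. miR-191, at 1.36, came after miR-202 at 3.56, miR-151 at 2.63 and miR-340 at 1.47. Of the 16 minor arms, 8 were called higher at 10 ng and 5 lower by limma, where 19.1% and 34.8% of all tested miRNAs were. miR-465a-3p, miR-465b-3p and miR-465c-3p are listed with the same values, so 1 measurement stands 3 times among the 12 and among the 8; with each value counted once, 6 of 14 minor arms were called higher and 5 lower. These hairpins were chosen after their values were seen, and no test was made.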
